A study of Homo sapiens with 2 samples.

Results

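Cytosolic ribosomal protein genes were described in the human triple-negative breast cancer line MDA-MB-231 at 48 h after transfection with the THAP7-AS1 Smart Silencer, set against transfection with Si-NC, a negative control. A Smart Silencer is a commercial mixture of short interfering RNAs and antisense oligonucleotides, and the gene it targets, THAP7-AS1, yields a long noncoding RNA antisense to THAP7. There was 1 library per transfection, taken from total RNA of cells grown in L15 medium with serum, so no difference below has a replicate check and every statement describes these 2 libraries. Members were the genes whose symbol begins with RPL or RPS and a digit, with RPLP0, RPLP1, RPLP2 and RPSA, leaving out the RPS6K kinases, pseudogenes and hyphenated readthrough symbols. This gave 85 of 12918 listed genes, with 391 of 39605 listed transcripts. They comprised 31 genes of the small (40S) subunit, 43 of the large (60S) subunit, 3 of the P stalk, 7 paralogs of another ribosomal protein gene, and RPS19BP1, whose symbol meets the rule but whose product binds RPS19 and is not a ribosomal protein. In all, 84 members reached 1 FPKM (fragments per kilobase, corrected for library depth; the unit was read from the values) in at least 1 library. The member that did not is Y-linked, and its level is not given.

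The ribosome reads messenger RNA with its 40S subunit and joins amino acids with its 60S subunit, and the P stalk of the 60S subunit recruits the GTP-binding elongation factors. Ribosomal protein mRNAs are among the most abundant of growing cells, and most of them begin with a C followed by a run of pyrimidines, the terminal oligopyrimidine or TOP motif, through which the mTOR kinase and its target LARP1 regulate their translation and stability. Their genes have many processed pseudogenes in the genome, so sequence reads may be divided between near-identical copies.

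One column of the deposited table is named for si-NC. The other, headed si-v, was taken as the silencer library by elimination and is called the si-v library here, so every direction rests on that assignment. The target could not be used to check it, since 0 of the 3 annotated transcripts of THAP7-AS1 were among those listed, and the silencing was not checked. Fragments summed over the listed transcripts, estimated from the smallest values, numbered about 8300000 in the si-v library and 7830000 in the si-NC library. Of the defining markers of the line, VIM stood at 373 and 344 FPKM, AXL at 204 and 259, CD44 at 114 and 152, and CAV1 at 83.7 and 118, in the si-v and si-NC libraries in that order, while ESR1 was listed at 0 in both and CDH1 at 0.122 and 0.0845. ERBB2, low in this line, was at 17.4 FPKM in the si-v library and 4.65 in the si-NC library, and EPCAM at 12.8 and 11.3. No value is given for PGR, PTPRC and PECAM1, which were also chosen as markers. In bulk RNA, fewer cells with a transcript and less of it per cell cannot be told apart.

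The start of the RNA is shown for members that lay 1.5-fold or more apart between the libraries, except RPS19BP1, with the TOP motif visible where present, and for comparison genes described further on. The windows run from 30 bases before the RefSeq start to 30 bases from it, on GRCh38.p14, and capitals mark the unbroken run of C and T that holds the first base of the RNA. The members higher in the si-v library are given first, then those lower, then RPL26, RPS27 and RPS27L for the paralog pairs and RPS24 and RPSA for their transcripts.
RPL26L1 (chr5:172958699-172958758, plus strand): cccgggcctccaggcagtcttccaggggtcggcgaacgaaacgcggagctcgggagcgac
RPL22L1 (chr3:170870166-170870225, minus strand): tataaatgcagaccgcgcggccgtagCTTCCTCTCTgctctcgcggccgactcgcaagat
RPS19 (chr19:41860225-41860284, plus strand): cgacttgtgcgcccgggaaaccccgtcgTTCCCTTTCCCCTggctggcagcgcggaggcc
RPS21 (chr20:62387073-62387132, plus strand): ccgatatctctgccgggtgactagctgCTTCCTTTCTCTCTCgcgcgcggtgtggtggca
RPS14 (chr5:150449710-150449769, minus strand): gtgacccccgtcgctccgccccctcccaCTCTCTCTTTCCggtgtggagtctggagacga
RPL22 (chr1:6199566-6199625, minus strand): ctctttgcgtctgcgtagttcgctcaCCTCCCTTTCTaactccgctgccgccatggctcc
RPL13 (chr16:89560652-89560711, plus strand): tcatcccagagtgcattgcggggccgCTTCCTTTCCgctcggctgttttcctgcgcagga
RPL7A (chr9:133348188-133348247, plus strand): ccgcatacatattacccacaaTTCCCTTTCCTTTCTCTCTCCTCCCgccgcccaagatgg
RPL10A (chr6:35468371-35468430, plus strand): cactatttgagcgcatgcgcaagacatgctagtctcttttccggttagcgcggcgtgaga
RPL26 (chr17:8383164-8383223, minus strand): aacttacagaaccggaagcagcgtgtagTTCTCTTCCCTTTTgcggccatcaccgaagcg
RPS27 (chr1:153990732-153990791, plus strand): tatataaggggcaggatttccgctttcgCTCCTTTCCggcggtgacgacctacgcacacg
RPS27L (chr15:63157448-63157507, minus strand): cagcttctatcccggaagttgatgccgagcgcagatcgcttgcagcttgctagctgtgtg
RPS24 (chr10:78033833-78033892, plus strand): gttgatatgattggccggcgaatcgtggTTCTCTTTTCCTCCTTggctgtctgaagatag
RPSA (chr3:39406690-39406749, plus strand): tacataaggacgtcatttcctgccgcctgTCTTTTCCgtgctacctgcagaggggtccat

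Of these windows, those of RPL26L1 and RPS27L start at G and that of RPL10A at A, so they hold no capitals. A run of C and T begins shortly after the start of RPL10A. RPL13 has 3 starts in the RefSeq table, and RPS19 and RPL26L1 have 2 each; the start with the longest run was taken, or the first in the table where none had a run. Over the 67 members matched to the table, a start, any of those in the table, at C with C or T in each of the first 5 bases was found for 46 of 62 subunit and P stalk genes (74.2%) and for 1 of 5 paralogs (20%), RPL22L1. The same start was found for 681 of the 8875 matched genes past the filter (7.67%). The rule depends on the exact RefSeq start base. RPL19, RPS7 and the paralog RPL36AL did not meet it, though runs of 12, 11 and 15 pyrimidines held their start base. In the windows from 250 bases before to 50 bases after the start, read on both strands, CCGGAA, the core of sites for ETS factors, was in 56.5% of the subunit and P stalk genes and 36.9% of all matched genes, AAGATGG in 12.9% and 10%, CACGTG in 6.45% and 12.9%, and TATAAA in 8.06% and 7.83%. The 46 genes with the pyrimidine start by the 5-base rule had a median log2 ratio of si-v over si-NC of 0.30, and the 16 without it 0.25. The letters AA end CCGGAA and begin AAGATGG, so these motifs may overlap, and a match describes the sequence only.

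Levels spanned a wide range in both libraries. Gene levels ran from 8.97 to 1377 FPKM in the si-v library with a median of 219, and from 8.68 to 1270 FPKM in the si-NC library with a median of 193. Of the 100 genes of highest FPKM, 33 were members in each library. In the si-v library the order was led by RPL35, at 1377 FPKM in the si-v library and 1270 in the si-NC library, and RPL12, at 1260 and 1155. RPL19 followed at 1238 FPKM in the si-v library and 977 in the si-NC library, ahead of RPL5, which binds 5S ribosomal RNA, at 978 and 1022, and RPL24 at 811 and 696. All 5 belong to the 60S subunit. Together the members held 8.81% of the summed FPKM in the si-v library and 7.53% in the si-NC library. As a share of the approximate fragments, which does not weigh short transcripts more, they held 3.32% and 2.84%.

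Low FPKM within the family went with long listed transcripts. For 17 members the most abundant listed transcript was at least 2000 bases long, and these had a median level of 91.1 FPKM in the si-v library and 62.8 in the si-NC library. The other 67 had medians of 296 and 227 FPKM. In approximate fragments the order was turned round, with medians of 3058 and 2485 for the genes with long transcripts and 2582 and 1972 for the others. RPL37 is an example, at 41.6 FPKM in the si-v library and 37.7 in the si-NC library, on about 3631 and 3048 fragments, nearly all of them on RPL37-201, a transcript with 7686 bases in the annotation. Levels of members are therefore compared between libraries in what follows, not ranked as protein supply.

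**Figure D1:**
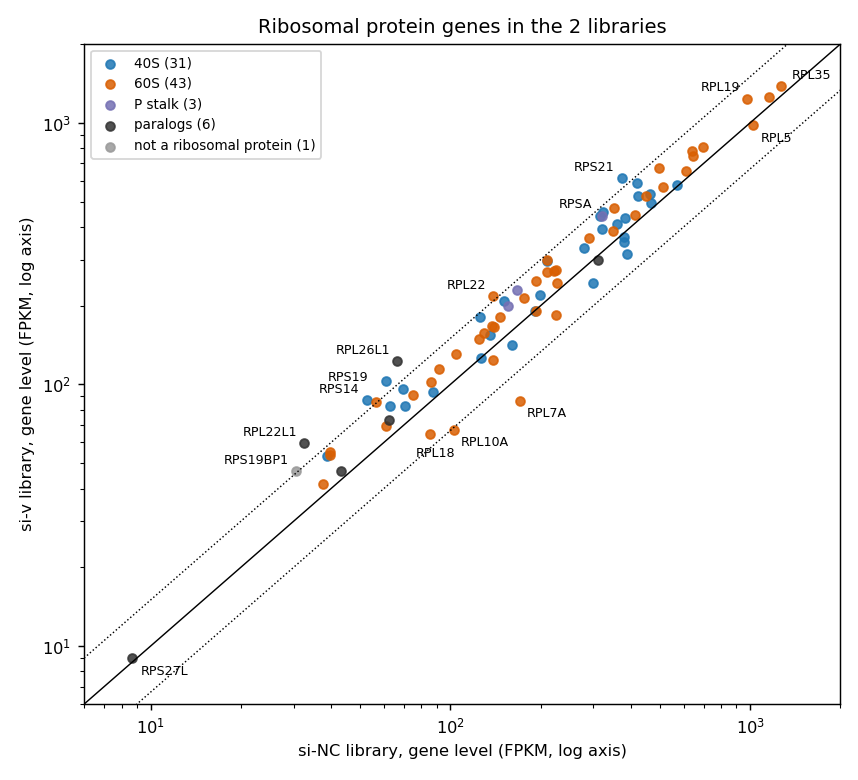
Gene levels (FPKM, log axes) of the 84 members past the filter, si-v library on the vertical axis and si-NC library on the horizontal axis, coloured by group; the solid line marks equal levels and the dotted lines a 1.5-fold difference. Most points lie just above the solid line, RPL7A (86.4 and 170 FPKM) lies farthest below and RPL26L1 (122 and 66.4 FPKM) farthest above.

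Ribosomal protein genes were slightly higher in the si-v library as a family, with few large differences. The log2 ratio, log2((si-v + 1)/(si-NC + 1)) on FPKM, was above 0 for 69 of 84 members (82.1%), beside 50.4% of all 11046 genes past the filter and 56.0% of the 2387 genes of at least 30 FPKM, members included. The median over members was 0.25, with quartiles of 0.11 and 0.43. The median was 0.00 over all genes, with quartiles of -0.27 and 0.30, and 0.06 over genes of at least 30 FPKM, with quartiles of -0.22 and 0.35. At 1.5-fold or more on this scale 8 members were higher (9.52%), a share near the background of 9.82% of all genes and 10.6% of genes of at least 30 FPKM. On fragments per gene 4 were higher and 1 lower. On summed FPKM only RPL7A and RPL10A were lower by that much (2.38%), where the background was 8.91% and 6.83%. No member reached 2-fold in either direction on summed FPKM, where 2.37% of all genes were higher and 2.49% lower by 2-fold. By the most abundant transcript 3 members were 2-fold or more higher and 1, RPL7A, was lower. The shares of all genes past these thresholds on fragments per gene or by the most abundant transcript are not given.

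The depth behind these values was high. Members rested on about 339 to 11917 fragments in the si-v library, with a median of 2600, and 274 to 11519 in the si-NC library, with a median of 2154. Counting intervals at 95% (exact, Clopper-Pearson) were taken on the ratio of fragments per gene without a pseudocount. They lay above 0 for 63 members, below 0 for 11, and included 0 for 10. Their median width was 0.08 on either side on the log2 scale, so at this depth small ratios were enough to leave 0 outside. The same counts over all genes are not given, so these counts reflect depth as well as ratios. The ratio on summed FPKM can lie outside its interval, as for RPL22 at 0.65 with an interval of 0.25 to 0.40. The intervals cover counting error in these libraries only, and neither the division of reads among transcripts and pseudogenes nor the variation between cultures.

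MT-CO1, an mRNA of the mitochondrial genome, was lower in the si-v library, at 2301 FPKM against 3962 in the si-NC library. With both libraries brought to the same sum without the mitochondrial genome, 67 of 84 members were above 0 and the median was 0.19, beside -0.05 for all genes; 5 members were then higher by 1.5-fold. With the trend over GC content and length removed, 61 members were above 0 and the median was 0.21. Single members near 0 changed side under both.

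**Figure D2:**
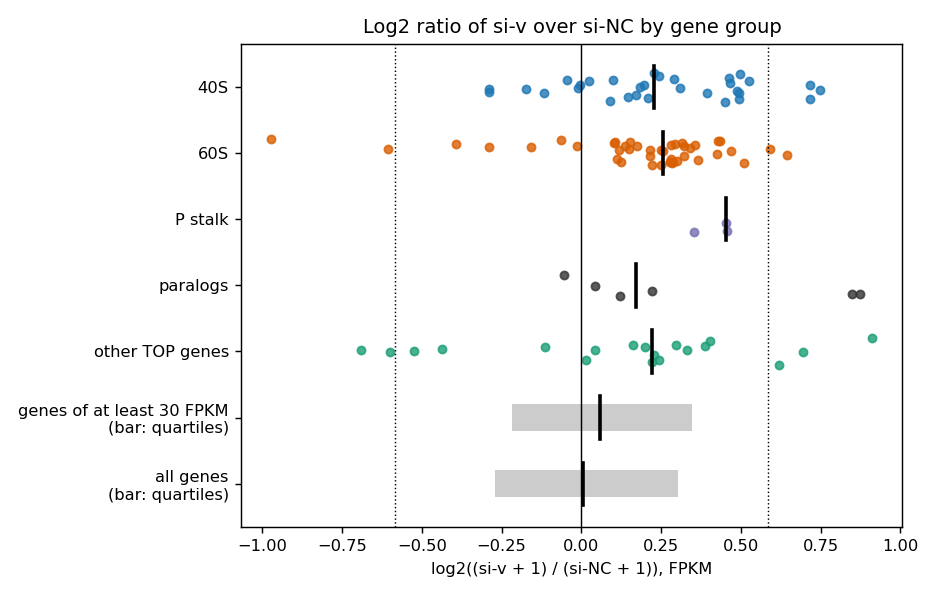
Log2 ratio of si-v over si-NC (FPKM with 1 added) for each 40S, 60S, P stalk and paralog gene and for other TOP genes, 1 point per gene, with the median as a black bar; grey bars run from the lower to the upper quartile of genes of at least 30 FPKM and of all genes, and dotted lines mark 1.5-fold. The medians of the 40S (0.23), 60S (0.26) and P stalk (0.45) genes lie to the right of those of the 2 grey bars (0.06 and 0.00).

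In the 40S subunit 24 of 31 genes were above 0, with a median of 0.23, 3 were higher by 1.5-fold and 0 lower. RPS19, needed for maturation of the 40S rRNA and the gene most often mutated in Diamond-Blackfan anaemia, stood at 103 FPKM in the si-v library and 60.9 in the si-NC library (log2 0.75; 0.65 on fragments per gene). RPS21 stood at 614 FPKM and 373 (0.72). Its fragments numbered about 2532 and 1427, for an interval of 0.62 to 0.81. RPS14, whose loss on 1 allele underlies the anaemia of the 5q deletion syndrome, stood at 87.2 FPKM in the si-v library and 52.7 in the si-NC library (0.72). Its ratio was 0.49 on fragments per gene, under 1.5-fold. These 3 genes were the highest ratios of the subunit.

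Below them lay RPS9 at 182 FPKM in the si-v library and 126 in the si-NC library (0.52), RPS24 at 455 and 322 (0.50) and RPS10 at 589 and 418 (0.49). RPS27A, which encodes a fusion of ubiquitin with the 40S protein eS31, stood at 296 FPKM in the si-v library and 209.7 in the si-NC library (0.49), and RPSA, a 40S protein also known as a laminin receptor, at 442 and 315 (0.49). By the most abundant transcript the ratios were 0.21 for RPS9 and 0.10 for RPS27A. RPS6, the substrate of S6 kinases, stood at 523 FPKM in the si-v library and 422 in the si-NC library (0.31).

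The 40S genes on the other side of 0 differed by less on summed FPKM. RPS3A stood at 316 FPKM in the si-v library and 387 in the si-NC library (-0.29), RPS15 at 245 and 299.6 (-0.29), RPS20 at 142 and 160.3 (-0.17) and RPS25, known for its part in internal ribosome entry, at 349 and 379 (-0.12). RPS15 was at -0.455 by its most abundant transcript and -0.517 after removal of the trend over GC content and length, but -0.222 on fragments per gene. RPS13 (126 and 127 FPKM) and RPS15A (191 and 192) had counting intervals that included 0. In the 40S head 10 of 14 genes were above 0, with a median of 0.22.

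In the 60S subunit 36 of 43 genes were above 0, with a median of 0.26 and 2 genes 1.5-fold or more higher and 2 lower. RPL22, an RNA-binding 60S protein that cells can lose and live, stood at 218 FPKM in the si-v library and 139 in the si-NC library (0.65), and RPL13 at 85.7 and 56.6 (0.59). On fragments per gene both were under 1.5-fold, at 0.34 and 0.35. RPL41, which encodes the smallest ribosomal protein, was at 300.0 FPKM in the si-v library and 210.4 in the si-NC library (0.51). All 8 genes of the peptide tunnel exit were above 0, from RPL26 at 655 and 611 FPKM (0.10) to RPL22, but by the most abundant transcript only 5 of the 8 were, and RPL35 was at -0.08 after the trend over GC content and length was taken out.

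RPL7A had the largest difference of the family, at 86.4 FPKM in the si-v library and 170 in the si-NC library (log2 -0.97). About 879 and 1633 fragments lie behind it, giving an interval of -1.13 to -0.89, and the ratio was the same on fragments per gene. It was past 2-fold by the most abundant transcript (-1.155) and after removal of the trend over GC content and length (-1.077). Without the mitochondrial genome in the sum it was -1.036. RPL7A is a 60S protein gene whose introns carry small nucleolar RNAs. RPL10A, with a single listed transcript, stood at 67.1 FPKM in the si-v library and 103 in the si-NC library (-0.61), with an interval of -0.77 to -0.46 and a ratio of -0.57 on fragments per gene, just under 1.5-fold. RPL18 stood at 64.7 and 85.3 FPKM (-0.39), RPL29 at 184 and 225 (-0.29) and RPL15 at 124 and 138 (-0.16). RPL15 was at -0.31 on fragments per gene and -0.37 by its most abundant transcript. After removal of the trend over GC content and length RPL18 was at -0.60, RPL29 at -0.46 and RPL15 at -0.14.

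RPL5 and RPL11 form a particle with 5S rRNA that binds the p53 ligase MDM2 when ribosome assembly is disturbed. RPL11 stood at 674 FPKM in the si-v library and 498 in the si-NC library (log2 0.44), and RPL5 at 978 and 1022 (-0.06), so these partners lay on opposite sides of 0. Their counting intervals were 0.39 to 0.51 for RPL11 and -0.10 to -0.03 for RPL5. Of 12 genes chosen from those mutated in Diamond-Blackfan anaemia, 9 were above 0 (75%), beside 82.1% of all members. Their median was 0.28. By the most abundant transcript 7 of the 12 were above 0, with a median of 0.10.

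All 3 P stalk genes were above 0. RPLP2 stood at 439 FPKM in the si-v library and 319.8 in the si-NC library (log2 0.46), RPLP1 at 229 and 167 (0.45) and RPLP0, the base of the stalk, at 199.6 and 156 (0.35). None was 1.5-fold apart on summed FPKM. RPLP0 was at 0.19 on fragments per gene and 1.22 by its most abundant transcript, RPLP1 at 0.54 and 0.58, and RPLP2 at 0.46 and 0.44. Their median of 0.45 was 0.25 after removal of the trend over GC content and length.

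Of the 6 paralogs 5 were above 0, and 2 of them had the highest ratios of all members; by the most abundant transcript 3 of the 6 were above 0. RPL26L1 stood at 122 FPKM in the si-v library and 66.4 in the si-NC library (log2 0.87), with about 954 and 486 fragments, while its parent RPL26 was at 655 and 611 (0.10). Of the 6 listed transcripts of RPL26L1, all were higher in the si-v library, from 0.22 for RPL26L1-204 to 1.69 for RPL26L1-205. RPL22L1, whose product can replace RPL22 in the ribosome, stood at 59.5 FPKM in the si-v library and 32.6 in the si-NC library (0.85). This came from RPL22L1-202, a transcript of 506 bases, at 47.2 and 18.7 FPKM, while RPL22L1-201, of 2190 bases, was at 12.2 and 13.9. On fragments per gene RPL22L1 was at 0.34, as RPL22 was.

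The other paralogs lay nearer 0. RPL7L1, a factor of 60S assembly, stood at 73.0 FPKM in the si-v library and 62.5 in the si-NC library (0.22), beside RPL7 at 166 and 139.8 (0.25). RPL39L stood at 46.8 and 43.0 (0.12), beside RPL39 at 214 and 176 (0.28), and RPL36AL at 299 and 311 (-0.05), beside RPL36A at 190 and 192 (-0.01). RPS27L, a target of p53, was the lowest member at 8.97 FPKM in the si-v library and 8.68 in the si-NC library (0.04), but -0.36 on fragments per gene; RPS27 stood at 578 and 569 (0.02). RPS19BP1 stood at 46.5 FPKM in the si-v library and 30.5 in the si-NC library (0.59). Parent and paralog share sequence, and how the authors' counting divided reads between them is not given in the sources used here.

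The median over the most abundant transcripts of the members lay closer to 0 than the median over the genes. This did not hold for each group or gene. The median by the most abundant transcript was 0.58 against 0.45 in the P stalk and 0.22 against 0.17 in the paralogs. RPL7A was at -1.155 against -0.971. Several transcripts were listed for 74 members. The most abundant one, by the mean of both libraries, took a smaller share of its gene in the si-v library for 53 of these (71.6%), beside 52.6% of the 2018 genes of at least 30 FPKM with several transcripts. Its median share was 75% in the si-v library and 79.5% in the si-NC library, and it was lower in the si-v library by 10 percentage points or more in 18 genes (24.3%) and higher by as much in 5 (6.76%). Among those 2018 genes the shares were 19.0% and 15.2%. Over all 84 members the most abundant transcript had a median log2 ratio of 0.13, with 60 above 0. The other transcripts were kept if they reached 5 FPKM in either library, so one could enter through the library where it was higher. The 152 such transcripts of members had a median of 0.59, with 118 above 0 (77.6%). Of these 152, 44 were 2-fold or more higher (28.9%) and 6 lower (3.95%). For 2609 transcripts of other genes of at least 30 FPKM, kept by the same rule, the median was 0.13, with 54.8% above 0. Of these, 21.0% were 2-fold or more higher and 15.6% lower.

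**Figure D3:**
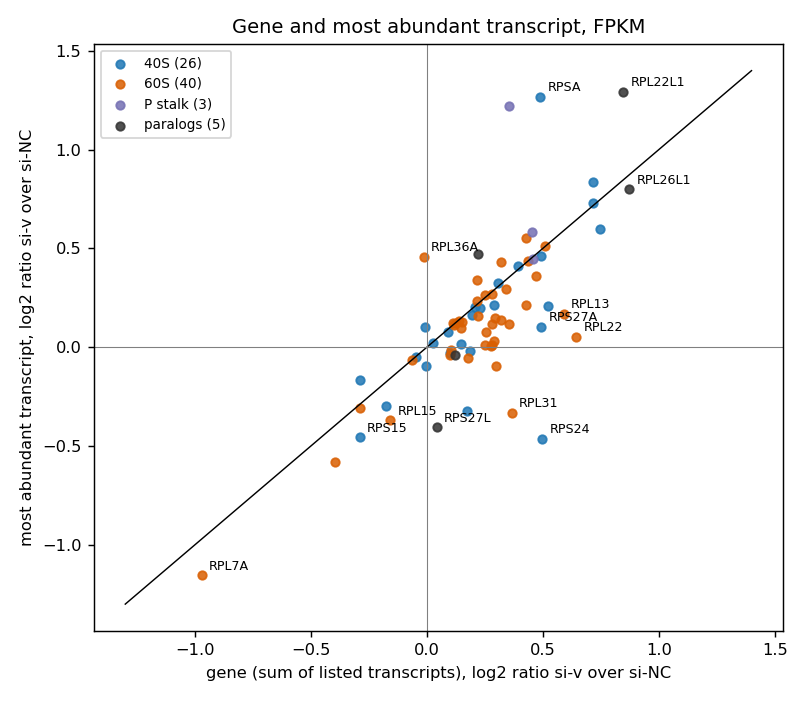
Log2 ratio of si-v over si-NC (FPKM with 1 added) of the gene on the horizontal axis and of its most abundant transcript on the vertical axis, for the 74 members with several listed transcripts; the line marks equal ratios. Below the line lie 53 genes, and 11 of them have a gene above 0 and a most abundant transcript below 0, among them RPS24 and RPL31.

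RPS24, whose last coding exons are alternatively spliced, showed this most. RPS24-203 stood at 114 FPKM in the si-v library and 158 in the si-NC library and took 25.1% and 49.0% of the gene, while RPS24-201 stood at 67.0 and 2.96 FPKM, on about 427 and 17 fragments. RPS24-202 was at 159 and 106 FPKM and RPS24-214 at 90.8 and 47.9, so the gene as a whole was higher in the si-v library.

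RPSA and RPLP0 showed an exchange between their leading transcripts. RPSA-202 stood at 270 FPKM in the si-v library and 111 in the si-NC library, and RPSA-201 at 128.5 and 185. RPLP0-206 stood at 116 FPKM in the si-v library and 49.3 in the si-NC library, and RPLP0-203 at 43.2 and 71.0. In both genes the transcript that led in the si-NC library was the second in the si-v library.

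In RPL31, RPL31-205 was at 86.7 FPKM in the si-v library and 109 in the si-NC library, RPL31-206 at 62.0 and 11.8 and RPL31-202 at 49.0 and 3.999. RPL13A-201 was level at 604 and 600.03 FPKM, and the difference of RPL13A (777 and 639 FPKM) came from RPL13A-213, at 132 and 12.02. RPL22-201 was likewise level at 92.9 and 89.5 FPKM, while RPL22-207 stood at 76.1 and 36.4.

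Among members lower in the si-v library, RPL7A-202, which took 79.98% of RPL7A in the si-v library and 91.1% in the si-NC library, stood at 69.1 and 155 FPKM, and RPL7A-201 was level at 15.3 and 14.2. In RPS3A, RPS3A-201 stood at 270.0 FPKM in the si-v library and 303 in the si-NC library, and RPS3A-209 at 20.5 and 64.7. RPL36A was level as a gene, with RPL36A-210 at 135 and 97.6 FPKM and RPL36A-202 at 40.4 and 87.3. These transcripts share most of their exons, and the error of dividing reads among them is not known.

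**Figure D4:**
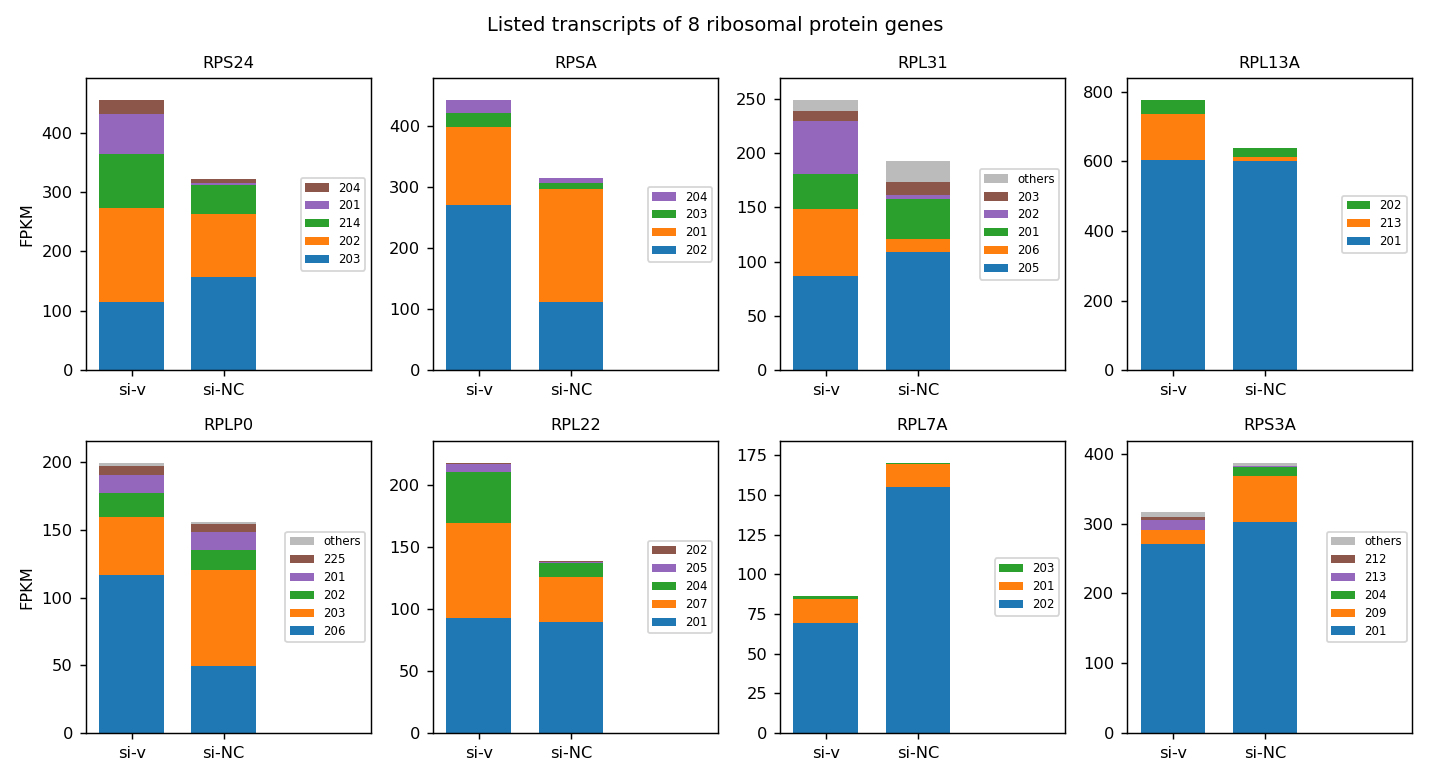
Levels (FPKM, stacked, axes from 0) of the listed transcripts of 8 members in the si-v library (left bar) and si-NC library (right bar), coloured by transcript with transcripts beyond the 5 most abundant in grey. RPS24-203 and RPSA-201 are shorter blocks in the si-v bars while the whole bars are taller, and RPL7A shows a shorter bar through RPL7A-202.

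Other genes whose mRNAs start with the TOP motif, or whose proteins sit on the ribosome lay on both sides of 0. Of 19 such genes 14 were above 0, with a median of 0.22, 3 were 1.5-fold or more higher and 2 lower. FAU, which encodes the 40S protein eS30 fused to a ubiquitin-like protein, stood at 299 FPKM in the si-v library and 158 in the si-NC library (log2 0.91), higher than any member. RACK1, a scaffold on the 40S head, stood at 123 FPKM in the si-v library and 110.2 in the si-NC library (0.16).

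All 5 elongation factor genes lay above 0 (EEF1B2 at 0.04, and at -0.35 by its most abundant transcript), with EEF1G at 192 FPKM in the si-v library and 124 in the si-NC library (0.62), EEF2 at 285 and 218 (0.39) and EEF1A1 at 771 and 651 (0.24). Initiation factor genes lay on both sides. EIF3L stood at 52.7 FPKM in the si-v library and 32.1 in the si-NC library (0.70), but at 0.33 on fragments per gene and 4.83 by its most abundant transcript. EIF4A2 stood at 11.7 and 18.3 FPKM (-0.60) and EIF3F at 11.3 and 18.8 (-0.69), while EIF3F lay at -0.02 when fragments were counted and at 0.14 by its most abundant transcript.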

How the data were processed

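Total RNA of 2 cultures was sequenced, 1 library per group. The authors deposited 1 expression value per transcript, read here as FPKM because the header names no unit and the columns sum to 298813 and 301790. The submitters' processing notes name HISAT2 2.0.5, StringTie, cutadapt and hg19. No source used here gives the annotation release, the filters or the strand setting, and antisense reads cannot be told apart. Transcript IDs were matched without version to GENCODE 29 (99.5% matched; 34 of 391 member transcripts had another version), used for symbols, lengths and GC content only; no coordinates were carried between builds.

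FPKM was summed per gene, with a filter of 1 FPKM in at least 1 library and a pseudocount of 1, which understates differences of low genes. Counts of genes past 1.5-fold describe these libraries; with 1 library per group there is no test, SD or p-value. Fragments were taken as FPKM times length divided by the worth of 1 fragment, the densest value of that product between 60 and 120 in genes with a single transcript. This was 84.26 in the si-v library and 91.13 in the si-NC library. Of the 53 and 62 products within 25% of it, 69.8% and 74.2% lay within 5%, so fragment numbers are approximate. Fragments per gene were put on the scale of the FPKM sums, where the pseudocount equals 27.78 fragments in the si-v library and 25.95 in the si-NC library. The trend over GC content and length was a quadratic fit over all genes past the filter. Steps were tested on simulated data. Promoter sequences are RefSeq's, on GRCh38.p14. Python 3.11.15, numpy 2.4.6, pandas 2.3.3 and scipy 1.17.1 were used.

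The members, gene lists and alternatives were chosen with earlier results of these data known. Genes named are the 8 highest and 8 lowest members, the 5 of highest level in the si-NC library, RPSA, the P stalk genes, paralogs with their parents, members whose most abundant transcript was past 1.5-fold against the gene's direction, members with a single transcript past 1.5-fold, and the 2 highest and 2 lowest other TOP genes. Further genes, and the transcripts shown, were picked with their values in view. Results of some genes are not reported here.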

Additional observations from a re-analysis of the deposited data

How the results depend on the processing

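No paired analysis was possible because each group has 1 library. The median of the members kept its sign under all 12 alternatives, from 0.13 to 0.27. Some of them could not move it. The 2-fold threshold changes counts only, and the filter of 5 FPKM kept the same 84 members. By the most abundant transcript, medians were 0.13 for members, 0.12 for 60S genes, 0.58 for the P stalk and 0.39 for other TOP genes. The members' shares by that measure, taken on a smaller sum than the full summed FPKM, were 9.43% in the si-v library and 8.21% in the si-NC library. On fragments per gene 4 members were higher by 1.5-fold and 1 lower, with shares of 3.32% and 2.84%. Removing the trend over GC content and length left 5 higher and 3 lower by 1.5-fold, and the P stalk median was 0.25. Without the mitochondrial genome in the sum 5 were higher, with shares of 9.46% and 8.56%. Without RPS19BP1 and the paralogs 5 were higher, with shares of 8.61% and 7.36%. At 2-fold on summed FPKM 0 were higher and 0 lower, and with a pseudocount of 5 there was 1 lower by 1.5-fold. EIF3F was at 0.14 for its most abundant transcript. The shares of all genes past 1.5-fold under these alternatives are not given. The causes of these shifts were not tested. Of the 304 values of 38 single genes under the 8 alternatives that can move them, 247 moved within their counting error, 56 by more, some near 0 to the other side of it, and 1 that was past 1.5-fold, EIF3F, changed sign. Culture variation is unknown, and the division of reads among transcripts and pseudogenes limits every member.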

Other observations

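Genes outside the rule whose symbols begin alike were also listed. The readthrough gene RPL36A-HNRNPH2 stood at 51.4 FPKM in the si-v library and 19.6 in the si-NC library (log2 1.35), RPL17-C18orf32 at 11.3 and 7.29 (0.57) and RPS10-NUDT3 at 3.48 and 2.82 (0.23). They share exons with RPL36A (190 and 192 FPKM), RPL17 (181 and 147) and RPS10 (589 and 418), and reads of these exons cannot be told apart.

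Among kinases of ribosomal protein S6 and their relatives, RPS6KB1, which encodes S6 kinase 1, stood at 8.77 FPKM in the si-v library and 12.6 in the si-NC library (log2 -0.48, and -1.90 for its most abundant transcript) and RPS6KB2 at 11.1 and 8.52 (0.35). RPS6KA1, an ERK-activated kinase gene, stood at 15.1 FPKM in the si-v library and 9.32 in the si-NC library (0.64, but -0.003 for its most abundant transcript), RPS6KA4 at 33.1 and 22.7 (0.52) and RPS6KA3 at 14.8 and 14.6 (0.02).

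A retained-intron transcript of RPL11, RPL11-202, stood at 26.8 FPKM in the si-v library and 16.6 in the si-NC library, and took 3.98% and 3.32% of the gene.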
